A study of Mus musculus with 10 samples.

Results

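The genes described here are 42 genes of the cell cycle and of DNA replication, 16 that act in S phase and 26 that act in mitosis. They were taken by symbol from the 26378 named genes of the count table, and all 42 were found. All 42 also passed the filter on low counts, with 14944 named genes past it in all, and the lowest estimated count of any of them in any tumor was 296. The list was not made from measured values of these tumors, but it was proposed with earlier results on them known.

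RNA was sequenced from WEHI 164 tumors, a fibrosarcoma cell line of BALB/c mice grown subcutaneously in female wild-type BALB/c mice. The tumor piece was removed in a 75% debulk, before a hydrogel releasing poly(I:C), a synthetic double-stranded RNA that activates TLR3, was put in the wound. Mice whose tumor regressed completely were the 5 responders (tumors 5, 9, 10, 11 and 12), and mice whose tumor grew without delay were the 5 non-responders (tumors 1, 2, 3, 6 and 7). All 10 tumors were untreated when sampled, and the comparison asks whether they differed before treatment. All of them came from 1 injected cell line, so the cancer cells share one origin, and 4 of the 5 responders have the highest tumor numbers, so anything that went with that order and the response cannot be told apart. Libraries were made from polyA RNA, and the responders' libraries held 16002949 to 31160790 estimated counts against 19863863 to 28276142 for non-responders, with no detected difference (exact two-sided permutation p = 0.968).

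A dividing cell copies its DNA once in S phase and separates the copies in mitosis. S phase genes such as the MCM helicase subunits are driven by E2F transcription factors, which the retinoblastoma pocket proteins hold in check until the cell commits to division. Mitotic genes come later and are driven by the MuvB complex with B-Myb and FoxM1, through CHR elements and CCAAT boxes in their promoters. The summed mRNA of both groups is commonly read as a measure of the share of dividing cells in a tumor. In bulk tumor RNA, fewer dividing cells and less RNA per dividing cell cannot be told apart, and cancer cells and dividing immune cells add to the same counts. The tumors carried the mesenchymal program that a fibrosarcoma should have, with Vim, the intermediate filament vimentin, at 4296 to 5711 CPM (counts scaled to a common library total with TMM factors), and the 10 mesenchymal markers summed to 10685 to 12595 CPM. The 8 keratinocyte markers summed to 4.19 to 8.57 CPM, and 1 of them, Krt1, was at 0 in all 10 tumors.

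The promoters of the S phase and the mitotic members differ in some motifs and share the CCAAT box. RefSeq promoter windows (GRCm38.p6, 250 bases before to 50 after the annotated start) were given for 34 of the 42 members. An E2F motif (TTTCCCGC, TTTGGCGC, TTTCGCGC or TTTGCCGC, on either strand) was present in 6 of 13 S phase members (46.2%), in 1 of 21 mitotic members (4.76%, Cdk1) and in 2.60% of the 27025 genes with a window. A CHR motif (TTTGAA or TTCGAA or CTTGAA, on either strand) stood in 15.4% of S phase members, in 81.0% of mitotic members and in 32.5% of all genes. A CCAAT box was in 8 of 13 S phase members (61.5%), 19 of 21 mitotic members (90.5%) and 41.1% of all genes. Both a CHR motif and a CCAAT box were found in 17 of 21 mitotic members (81.0%), in 2 of 13 S phase members (15.4%, Mcm2 and Mcm7) and in 12.9% of all genes. Stretches of 200 bases before the start are shown for 4 members, since they show the E2F and CCAAT layout (Mcm5), all the motifs together (Cdk1) and the CHR and CCAAT layout (Mki67 and Espl1). Capitals mark the matches. They lie at chr8:75109309-75109508 on the plus strand for Mcm5, chr10:69352913-69353112 on the minus strand for Cdk1, chr7:135716380-135716579 on the minus strand for Mki67 and chr15:102296093-102296292 on the plus strand for Espl1.
Mcm5: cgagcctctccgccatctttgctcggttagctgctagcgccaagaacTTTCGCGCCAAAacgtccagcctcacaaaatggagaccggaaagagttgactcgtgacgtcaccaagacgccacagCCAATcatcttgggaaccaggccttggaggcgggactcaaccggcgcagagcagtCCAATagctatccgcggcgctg
Cdk1: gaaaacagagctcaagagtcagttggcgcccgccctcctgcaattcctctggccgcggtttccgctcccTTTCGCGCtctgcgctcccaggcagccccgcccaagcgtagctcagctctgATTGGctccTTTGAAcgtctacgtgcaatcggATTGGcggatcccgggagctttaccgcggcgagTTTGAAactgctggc
Mki67: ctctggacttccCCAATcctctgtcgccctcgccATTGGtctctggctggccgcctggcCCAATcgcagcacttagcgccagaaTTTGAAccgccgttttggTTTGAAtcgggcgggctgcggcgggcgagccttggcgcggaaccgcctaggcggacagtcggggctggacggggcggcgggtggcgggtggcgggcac
Espl1: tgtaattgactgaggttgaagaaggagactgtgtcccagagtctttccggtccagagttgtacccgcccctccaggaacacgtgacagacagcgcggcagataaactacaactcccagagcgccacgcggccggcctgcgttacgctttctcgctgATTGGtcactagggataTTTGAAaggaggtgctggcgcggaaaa

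In Mcm5, a subunit of the replicative helicase, 2 E2F matches on opposite strands overlap and begin 153 and 149 bases before the start. In Cdk1, the kinase that drives entry into mitosis, the E2F match begins 131 bases before the start and CHR matches begin 71 and 15 bases before it. ATTGG is the CCAAT box read on the other strand. A match is a run of letters in the window and was not tested as a binding site, and the E2F, CHR and CCAAT motifs searched share no overlapping letters in the 4 stretches.

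The S phase and mitotic genes were at nearly the same level in responders and in non-responders. The median log2 fold change, responders less non-responders, was -0.02 over the 16 S phase members and 0.01 over the 26 mitotic members, beside 0.001 over all 14944 genes. With 1 tumor left out the S phase median ran from -0.054 to -0.0020 and the mitotic median from -0.010 to 0.029, so the latter has no stable sign. By edgeR's quasi-likelihood test no member (0 of 42) and no other gene of the table (0% of 14944) passed an adjusted p of 0.05. DESeq2 called 1 gene, Col6a2, a collagen outside the list, and limma-voom called 0. At an unadjusted p under 0.05, 1 of 42 members (Espl1, lower in responders) was reached, where 8.36% of all genes were (4.75% higher and 3.61% lower in responders). In 0 of 42 members were the 2 groups of tumors free of overlap, against 0.883% of all genes. The members' adjusted p by edgeR ran from 0.572 to 0.998.

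The intervals show how small a difference these data allow. The 95% interval of the fold change lay within 1.2-fold in either direction for 42 of 42 members, and the widest bounds of any member were -0.23 (Ccne1) and 0.21 (Ube2c) on the log2 scale. The same held for 52.1% of all genes tested and for 81% of the 8252 genes at least as abundant as Ccne1, the least abundant member at 20.3 CPM. All 26 mitotic members lay at 56.7 CPM or more, and no set matched to the members in abundance was compared. In the pathway lists described below it held for 137 of 161 genes, among them 39 of 40 replication fork genes but 5 of 14 p53 targets. The members' log2 fold changes ran from -0.11 (Espl1) to 0.09 (Cenpa), with 24 of 42 above 0. Of the S phase members 6 lay above 0 and 10 below it, and of the mitotic members 18 above and 8 below.

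**Figure D1:**
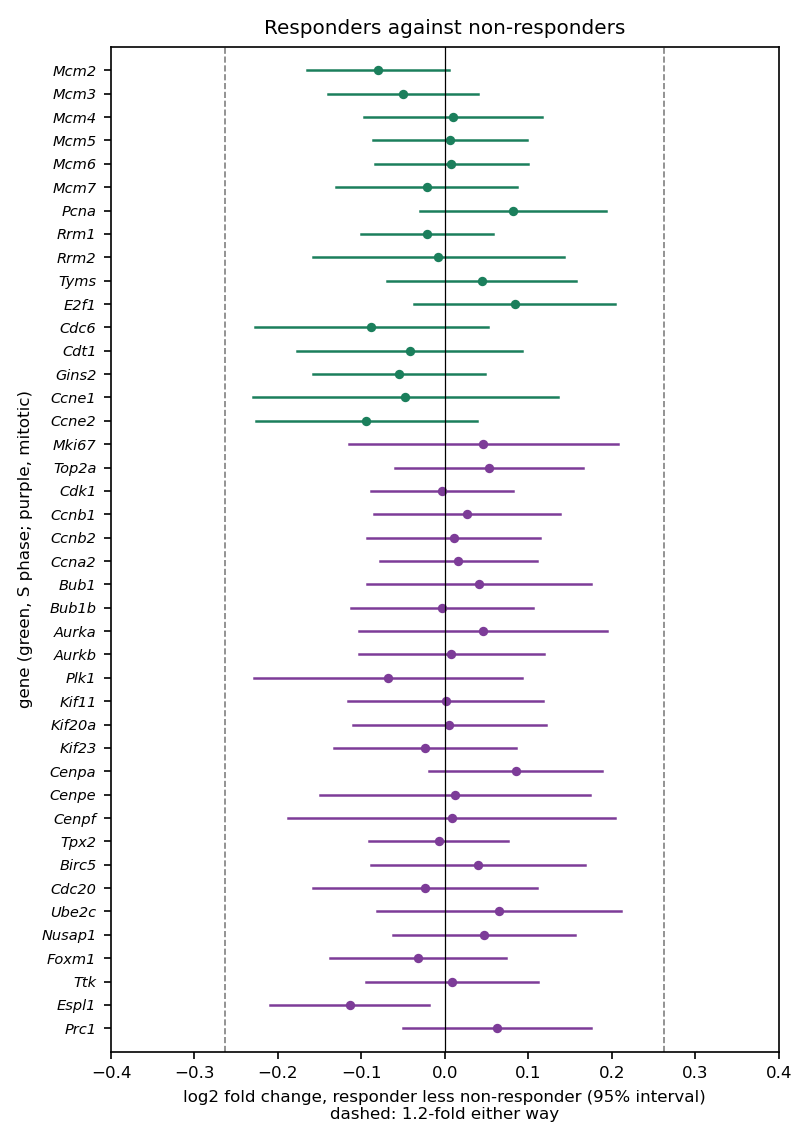
The log2 fold change of each of the 42 members, responders less non-responders, with its 95% interval from edgeR, S phase genes in green and mitotic genes in purple. All 42 intervals lie between the dashed lines at 1.2-fold, and the interval of Espl1 alone does not cross 0.

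Pcna, the clamp that holds DNA polymerase on its template, lay at 303, 352, 334, 352 and 329 CPM in responders 5, 9, 10, 11 and 12 and at 310.0, 315, 295, 329 and 329 CPM in non-responders 1, 2, 3, 6 and 7. Responders 9 and 11 were highest and non-responder 3 lowest, and the groups overlapped. The log2 fold change was 0.08 (SE 0.05, edgeR adjusted p = 0.696). Mcm2, another helicase subunit, lay at 206, 196, 206, 214 and 201 CPM in responders and at 219, 219, 206, 218 and 219 CPM in non-responders, in the same order of tumors. For Mcm2, 4 non-responders lay above every responder, and non-responder 3 lay among the responders. The log2 fold change of Mcm2 was -0.08 (SE 0.04, edgeR adjusted p = 0.619).

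Rrm2, the regulated subunit of ribonucleotide reductase, which makes deoxynucleotides, had 128, 127, 147, 158 and 136 CPM in responders and 142, 138, 127, 157 and 135 CPM in non-responders. The groups covered nearly the same range, with a log2 fold change of -0.01 (SE 0.07, edgeR adjusted p = 0.988). E2f1, the activator E2F itself, had 47.8, 45.5, 53.4, 51.9 and 50.01 CPM in responders and 45.4, 49.8, 44.3, 49.4 and 45.8 CPM in non-responders. Responders 10, 11 and 12 were above all non-responders for E2f1, while responder 9 was near the lowest. Its log2 fold change was 0.08 (SE 0.06, edgeR adjusted p = 0.713).

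The 4 further S phase genes with the smallest p values all had log2 fold changes below 0. Ccne2, a cyclin E that starts S phase with Cdk2, had 29.7, 30.2, 29.0, 27.6 and 27.6 CPM in responders and 32.2, 28.4, 28.0, 31.6 and 33.4 CPM in non-responders. Non-responders 1, 6 and 7 were above every responder, and the log2 fold change was -0.09 (SE 0.06, edgeR adjusted p = 0.705). Cdc6, which loads the helicase at origins, had 44.4, 48.4, 51.4, 48.1 and 44.9 CPM in responders and 52.0, 47.0, 46.0, 50.2 and 56.8 CPM in non-responders. Only non-responders 1 and 7 lay above the highest responder for Cdc6, and the log2 fold change was -0.09 (SE 0.06, edgeR adjusted p = 0.737). Mcm3 had a log2 fold change of -0.05 (SE 0.04, edgeR adjusted p = 0.774) over a range of 134 to 153 CPM, and Gins2, of the GINS complex at the fork, one of -0.05 (SE 0.05, edgeR adjusted p = 0.780) over 45.4 to 54.4 CPM.

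The other 8 S phase members lay between a log2 fold change of -0.05 (Ccne1, the other cyclin E) and 0.04 (Tyms, which makes thymidylate). The remaining helicase subunits were near 0, at 0.01 for each of Mcm4, Mcm5 and Mcm6 and -0.02 for Mcm7. Rrm1, the large subunit of ribonucleotide reductase, was at -0.02 and had the smallest coefficient of variation of all members, 2.17% over the 10 tumors.

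Among the mitotic genes, Mki67, which codes for the proliferation marker Ki-67, lay at 487, 602, 520.3, 459 and 543 CPM in responders and at 519, 526, 506, 440.1 and 537 CPM in non-responders. The highest tumor (responder 9) and the second lowest (responder 11) were both responders, and the groups overlapped throughout. The log2 fold change was 0.05 (SE 0.07, edgeR adjusted p = 0.894). Top2a, the topoisomerase that untangles replicated chromosomes, lay at 684, 811, 693, 732 and 742 CPM in responders and at 722, 689, 720.2, 671 and 729 CPM in non-responders. Responder 9 stood highest again and non-responder 6 lowest, with a log2 fold change of 0.05 (SE 0.05, edgeR adjusted p = 0.813).

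Cdk1 was among the steadiest members, at 155, 165, 159, 164 and 166 CPM in responders and 165, 164, 153, 164 and 166 CPM in non-responders. Responder 5 and non-responder 3 were the lowest tumors of their groups, and the log2 fold change was -0.00 (SE 0.04, edgeR adjusted p = 0.990). Ccnb1, the cyclin B partner of Cdk1, had 128, 141, 141, 145 and 141 CPM in responders and 141, 141, 122, 136 and 143 CPM in non-responders. The same tumors, 5 and 3, were the lowest, with a log2 fold change of 0.03 (SE 0.05, edgeR adjusted p = 0.920).

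Espl1, separase, which cuts cohesin so that sister chromatids part, had the smallest p of all members. It lay at 96.7, 96.2, 104, 97.1 and 95.1 CPM in responders and at 106, 113, 99.4, 103 and 108 CPM in non-responders. The values of 4 responders were below every non-responder, and that of responder 10 was among those of the non-responders. The log2 fold change was -0.11 (SE 0.04), with an unadjusted p of 0.0229 and an adjusted p of 0.572 by edgeR's test, so it did not pass the threshold. Without non-responder 2, the tumor with the highest Espl1, no member had an unadjusted p under 0.05.

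Apart from the genes already described, the 3 mitotic genes with the smallest p had log2 fold changes above 0. Cenpa, the histone variant that marks centromeres, had 105, 122, 108, 118 and 116 CPM in responders and 112, 109.8, 106, 103 and 105 CPM in non-responders. Responders 9, 11 and 12 were above every non-responder, and the log2 fold change was 0.09 (SE 0.05, edgeR adjusted p = 0.658). Prc1, which bundles the midzone of the spindle, spanned 176 to 204 CPM in responders and 171 to 196 CPM in non-responders, with a log2 fold change of 0.06 (SE 0.05, edgeR adjusted p = 0.773). Ube2c, the ubiquitin-conjugating enzyme of the anaphase-promoting complex, spanned 112 to 143 CPM in responders and 114 to 133 CPM in non-responders, with a log2 fold change of 0.06 (SE 0.07, edgeR adjusted p = 0.827).

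The other 18 mitotic members lay between -0.07 (Plk1, polo-like kinase) and 0.05 (Nusap1, a spindle protein, and Aurka, Aurora kinase A) on the log2 scale of the fold change. Kinases of the spindle checkpoint were near 0, with Bub1 at 0.04, Bub1b at -0.00 and Ttk at 0.01. Foxm1, the factor that drives mitotic genes, was at -0.03, and Birc5, survivin, at 0.04. These genes spanned functions from entry into mitosis to cytokinesis. None of the 18 had an unadjusted p under 0.05, beside 8.36% of all genes.

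The level of each group in each tumor was the mean over its members of log2(CPM + 1) less the member's mean over the 10 tumors. The S phase level was -0.06, -0.03, 0.01, 0.05 and -0.02 in responders 5, 9, 10, 11 and 12, and 0.02, 0.00, -0.07, 0.05 and 0.04 in non-responders 1, 2, 3, 6 and 7. The mitotic level was -0.08, 0.07, 0.01, 0.02 and 0.01 in responders and 0.03, 0.04, -0.09, -0.03 and 0.02 in non-responders, in the same order. Responder 5 and non-responder 3 were lowest on both levels, and the groups overlapped on both. Responders had a mean S phase level of -0.01 ± 0.04 and a mean mitotic level of 0.01 ± 0.05 (SD, n = 5). Non-responders had 0.01 ± 0.05 and -0.01 ± 0.05 (SD, n = 5). Both differences were smaller than the spread between tumors of one group.

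The levels of the members moved less between tumors than those of the cell type marker lists, as did those of most other cell cycle lists. The 8 pathway lists described below spanned 1.05-fold (ubiquitin ligases of the cell cycle) to 1.19-fold (CDK inhibitors and pocket proteins). Replication fork genes spanned 1.08-fold and kinetochore, condensin and cytokinesis genes 1.10-fold, so a small span was not particular to the members. From the lowest to the highest tumor the S phase level spanned 1.09-fold and the mitotic level 1.12-fold, while markers of T and NK cells spanned 2.87-fold, of skeletal muscle 2.64-fold, of granulocytes 2.21-fold, of macrophages 1.41-fold and of mesenchymal cells 1.16-fold. The summed CPM of the 13 T and NK cell markers in the table was 58.0, 175, 183, 264 and 160 in responders and 119, 54.9, 77.9, 94.1 and 57.8 in non-responders. Of these markers 6 of 13 had an unadjusted p under 0.05, all higher in responders, beside 4.75% of all genes, and Gzmb, granzyme B, was the most abundant, at 14.8 to 109.8 CPM. Responder 5 stood with the non-responders on these markers. At the same unadjusted p, 2 of 6 granulocyte, 1 of 2 keratinocyte and 1 of 4 erythroid markers were higher in responders, and 3 of 8 endothelial, 2 of 10 mesenchymal, 2 of 7 adipocyte and 1 of 10 skeletal muscle markers were lower, beside 3.61% of all genes, while 0 of 10 macrophage and 0 of 3 B cell markers reached it (markers past the filter). The level of responders less non-responders was -0.14 for endothelial and -0.11 for mesenchymal markers. The most abundant markers of the other lists were C1qa of macrophages at 296 to 447 CPM, Csf3r of granulocytes at 11.7 to 38.8, Eng of endothelium at 67.1 to 90.3, Acta1 of skeletal muscle at 34.0 to 102, Fabp4 of adipocytes at 16.5 to 33.1, Hba-a2 of red cells at 7.75 to 16.2, Krt10 of keratinocytes at 2.31 to 3.72 and Cd79b of B cells at 0.357 to 0.959. Their part in the levels of the members was not tested. The highest tumor on the T and NK cell level (responder 11, 0.82) had a mitotic level of 0.02, and the lowest, non-responder 2 (-0.70) and responder 5 (-0.67), had mitotic levels of 0.04 and -0.08.

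**Figure D2:**
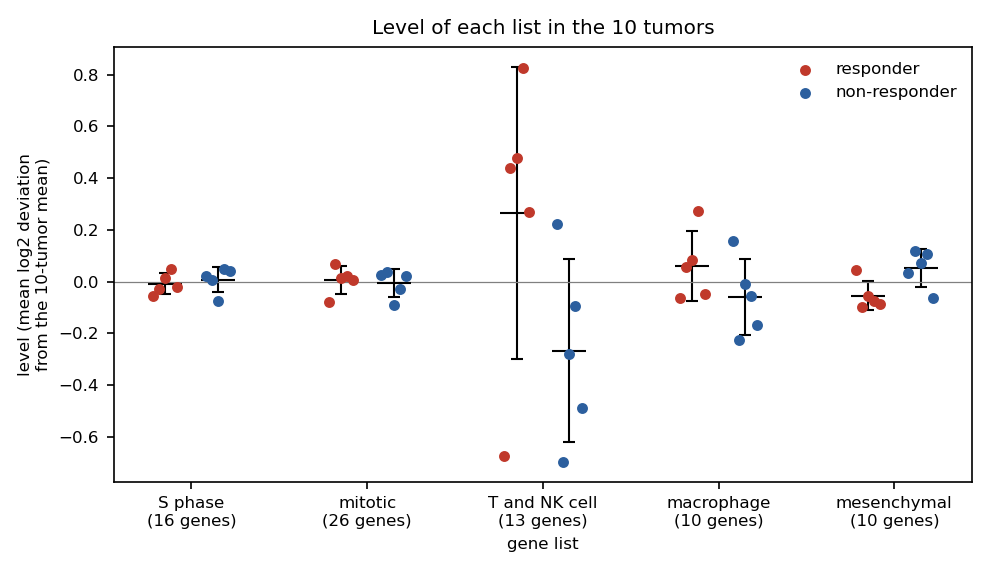
Level of the S phase and mitotic members and of 3 cell type marker lists in each tumor, as the mean log2 deviation from the 10-tumor mean, with points for tumors and bars for the group mean and SD (n = 5). The S phase and mitotic points lie between -0.09 and 0.07, while the T and NK cell points run from -0.70 to 0.82.

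Variation between tumors was small and in part shared by both groups. The coefficient of variation over the 10 tumors had a median of 5.57% in the 42 members (5.18% in S phase and 5.603% in mitotic members), beside 6.52% in genes at least as abundant. It was below 10% in 41 of 42 members and in 82.1% of those genes, and the exception was Cenpf, a kinetochore protein, at 11.1%. The ratio of the highest to the lowest tumor ranged from 1.08 (Rrm1) to 1.39 (Cenpf). Non-responder 3 was the lowest tumor for 19 of 42 members and lay below the member's own mean for 37, and responder 5 was the lowest for 7 and below the mean for 39. On average over the 42 members non-responder 3 was 5.63% and responder 5 was 4.79% below the mean of the tumors. The same counts were not made over all genes, and whether these tumors were low beyond the members was not tested.

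**Figure D3:**
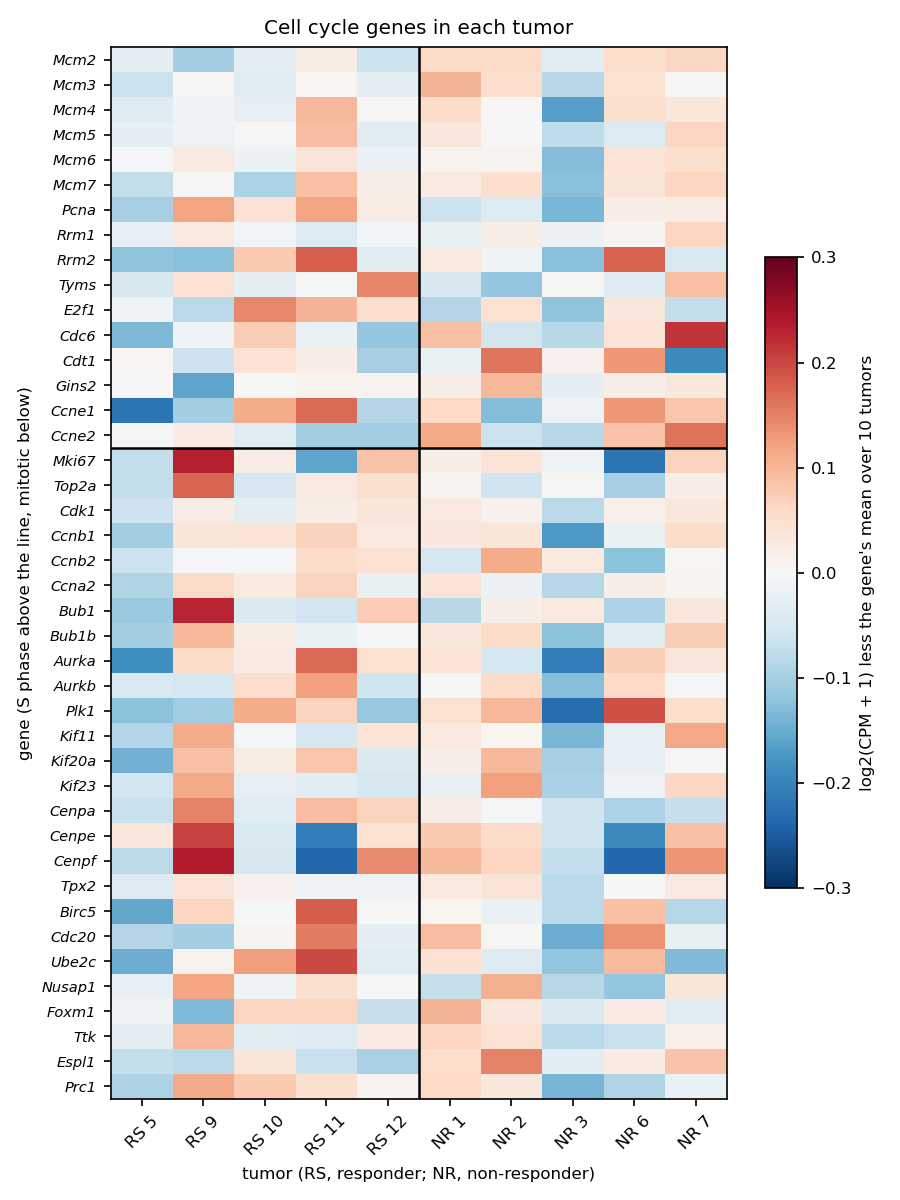
Colors give log2(CPM + 1) of each member less its mean over the 10 tumors, with S phase genes above the horizontal line, mitotic genes below it, responders (RS) on the left and non-responders (NR) on the right. The columns of responder 5 and non-responder 3 are mostly blue, below the mean for 39 and 37 of 42 members.

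Tumors 5 and 3 are from different groups and had 25627675 and 19863863 estimated counts, the latter being the lowest depth among non-responders, while responder 9, at 16002949, had the lowest of all. Their T and NK cell levels were -0.67 and -0.28, their mesenchymal levels 0.04 and 0.07, and their levels of 14 p53 target genes 0.04 and 0.11, the last being the highest of all tumors. Non-responder 2 had a p53 target level of 0.045 and the highest mesenchymal level, 0.12, with a mitotic level of 0.04. The part of the p53 target, mesenchymal and T and NK cell levels in the low levels of tumors 5 and 3 was not tested. Across the 10 tumors, the median Pearson r between members was 0.29 over 120 pairs of S phase genes, 0.42 over 325 pairs of mitotic genes and 0.24 over 416 pairs of one of each. Without tumors 5 and 3 (n = 8) these were 0.14, 0.14 and -0.03. All pairs share the same 10 libraries and their depth, so they are given as descriptions only.

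The mitotic level less the S phase level was largest in responder 9 (0.09) and lowest in non-responder 6 (-0.08), with a mean of 0.01 ± 0.05 in responders and -0.01 ± 0.04 in non-responders (SD, n = 5). In both tumors the members' deviations went with the GC content and with the length of their transcripts. The slope over the 42 members was -0.14 log2 units per 10 percentage points of GC in responder 9 and 0.09 in non-responder 6, with Pearson r of -0.695 and 0.501 across genes, which are not independent replicates. With log2 transcript length r was 0.391 in responder 9 and -0.551 in non-responder 6, and their separate parts were not tested. Over 8080 genes of the table the slopes had the same signs, -0.07 and 0.04. Responder 11 had a member slope of 0.08 and a correlation with transcript length of -0.760. Smaller member slopes were seen in non-responder 7 (-0.06), responder 12 (-0.05), responder 10 (0.05) and non-responder 2 (0.03), whose mitotic less S phase levels were -0.02, 0.03, -0.00 and 0.03. Of these, non-responders 7 and 2 did not follow the pairing of sign seen in responder 9 and non-responder 6. Responder 11, with a mitotic less S phase level of -0.03, followed it. Responder 5, non-responder 3 and non-responder 1 had slopes of -0.008, -0.007 and 0.004. Their levels were -0.02, -0.01 and 0.005, so these tumors did not follow it. The member slope and the mitotic less S phase level come from the same 42 genes, so their signs are not independent.

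The pattern was not shared by all members. Of the 21 members with GC content below the median, 16 had a higher CPM in responder 9 than in non-responder 6, as did 6 of the 21 others. These tumors were picked as the extremes of the mitotic less S phase level of the same members. The groups differ in GC content, so the split is a description only, and it was not made over all genes. The genes named next were chosen after their values were seen. Mki67 (46.6% GC, 10061 bases) had 602 CPM in responder 9 but 459 in responder 11 and 440.1 in non-responder 6. Cenpf (43.3% GC, 11130 bases) had 186, 134 and 134 CPM in the same 3 tumors, and Bub1 (41.0% GC) had 137, 112 and 109. Plk1 (56.0% GC) had the opposite order, with 94.1 CPM in responder 9, 106 in responder 11 and 116 in non-responder 6. Ccne2, the most AT-rich member (36.3% GC), did not follow the order of Mki67, with 30.2, 27.6 and 31.6 CPM in the same 3 tumors, nor did Mcm4 (45.5% GC), with 149.7, 161 and 156 CPM. Split at the median GC content, the 21 AT-richer members had a level of 0.10 in responder 9 and -0.04 in non-responder 6, and the 21 GC-richer members had -0.03 and 0.04. The members' median GC content was 50.7% in the S phase group and 47.3% in the mitotic group, so transcript composition and cell cycle phase cannot be fully told apart within a tumor. With each tumor's slope on GC removed, the difference between responders and non-responders in mitotic less S phase level was 0.02, beside 0.03 without this step, and without it ran from 0.0078 to 0.040 when 1 tumor was left out.

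**Figure D4:**
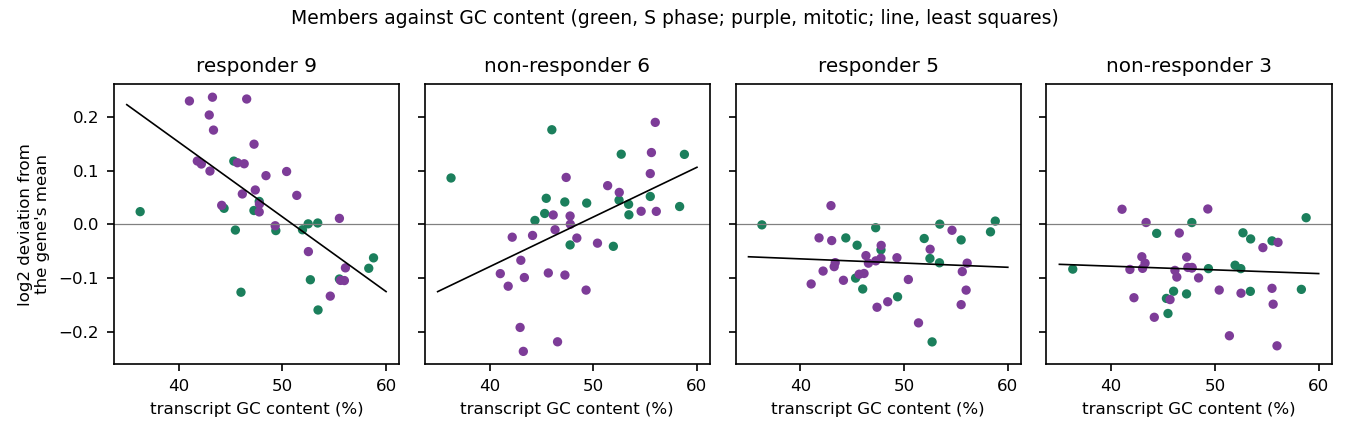
Log2 deviation of each member from its own mean against the GC content of its transcript in 4 tumors, S phase genes in green, mitotic genes in purple, with least-squares lines. The line falls in responder 9 and climbs in non-responder 6, while in responder 5 and non-responder 3 nearly all points lie below 0 at every GC content.

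Compared per kilobase of transcript, Pcna was the most abundant member at 214 CPM per kb, followed by Top2a at 138 and Ccna2, cyclin A2, at 84.4. The lowest were Ccne2 at 9.90, Ccne1 at 10.1 and Cdc6 at 10.6 CPM per kb. Mki67, next to Top2a in CPM, was at 51.1 CPM per kb, with a transcript of 10061 bases.

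Other genes of the same pathway were read from 8 lists, with 161 of 162 genes found. No gene of these lists passed an adjusted p of 0.05 by edgeR, and 9 of 161 had an unadjusted p under 0.05, 4 higher and 5 lower in responders, beside 8.36% of all genes tested. In the list of 40 replication fork genes none did, with a median log2 fold change of -0.00. Its smallest p values belonged to Cdc7, the kinase that fires origins (0.14, SE 0.07, edgeR adjusted p = 0.622), and Tk1, thymidine kinase (0.08, SE 0.04, edgeR adjusted p = 0.624). Among 44 genes of the kinetochore, condensin and cytokinesis, Kif18b, a kinesin, was lower (-0.14, SE 0.05) and Ncaph, a condensin subunit, higher (0.11, SE 0.05) in responders at an unadjusted p under 0.05, with adjusted p of 0.567 and 0.592 by edgeR.

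The CDK inhibitors and pocket proteins hold the cycle back. Of these genes 3 of 10 had an unadjusted p under 0.05, all higher in responders, beside the 4.75% of all genes given above. Rbl1, the pocket protein p107, had 101, 100.3, 98.3, 102 and 99.8 CPM in responders and 91.6, 90.5, 92.3, 92.4 and 98.9 CPM in non-responders. Only non-responder 7 reached into the range of the responders, and the log2 fold change was 0.11 (SE 0.04, edgeR adjusted p = 0.566). Rb1, the retinoblastoma protein, had a log2 fold change of 0.14 (SE 0.06, edgeR adjusted p = 0.579). The other was Cdkn1a, the CDK inhibitor p21 and itself a p53 target, with 84.8, 99.0, 97.1, 113 and 92.1 CPM in responders and 90.3, 92.9, 92.2, 78.5 and 78.1 CPM in non-responders. Responders 9, 10 and 11 lay above all non-responders for Cdkn1a, and the log2 fold change was 0.17 (SE 0.08, edgeR adjusted p = 0.592).

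The E2F and MuvB list had 13 of 14 genes with a log2 fold change below 0, all but Lin37, a MuvB subunit at 0.12, and the median of the list was -0.03. Over all genes 7428 of 14944 lay below 0. At an unadjusted p under 0.05, 1 of 14 was reached, beside 8.36% of all genes. E2f1, counted with the S phase members, is not in this list and lay above 0, at 0.08. E2f8, a repressor E2F, had -0.12 (SE 0.05, edgeR adjusted p = 0.583) and E2f4, which acts with the pocket proteins, -0.10 (SE 0.05, edgeR adjusted p = 0.632). In the checkpoint and repair list Cdc25a, the phosphatase that activates Cdk2, had 36.6, 36.0, 40.5, 40.1 and 35.5 CPM in responders and 42.2, 41.5, 39.3, 45.03 and 45.2 CPM in non-responders. Non-responder 3 alone lay within the range of the responders, and the log2 fold change of Cdc25a was -0.18 (SE 0.06, edgeR adjusted p = 0.555). Brca2, of homologous recombination, had 0.12 (SE 0.06, edgeR adjusted p = 0.626).

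Neither the G1 cyclins and kinases (0 of 6) nor the ubiquitin ligases of the cell cycle (0 of 19) had a gene at an unadjusted p under 0.05. Of all genes tested, 8.36% were at that level. Ccnd2, cyclin D2, had a log2 fold change of -0.11 (SE 0.07), Cdk2 0.04 (SE 0.04), Fzr1, an activator of the anaphase-promoting complex, -0.10 (SE 0.05), and Cdc16, a subunit of that complex, -0.08 (SE 0.05). Of 14 p53 targets, 9 had log2 fold changes below 0 and 5 above it. Cdkn1a, at 0.17, was counted with the CDK inhibitors and is not among the 14. At that level 2 of 14 were lower in responders, beside 3.61% of all genes: Phlda3 (-0.20, SE 0.07) and Zmat3 (-0.18, SE 0.06), with adjusted p of 0.555 and 0.556 by edgeR.

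The genes outside the cell cycle lists whose log2(CPM + 1) was most like the mitotic level over the 10 tumors were Chmp1b (Pearson r 0.933), Prdm10 (0.903), Cdkn3 (0.897), Dbndd2 (0.894) and Igsf9b (0.874), of 14741 genes ranked. Cdkn3 is a phosphatase that acts on cyclin-dependent kinases. The most opposite were Dcun1d3 (-0.919), Acnat1 (-0.903), Gpr31c (-0.890), Usp27x (-0.865) and Amigo3 (-0.863). With 10 tumors and this many genes ranked, values of this size are a description only.

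Of the members, 19 of 42 overlap another annotated gene on the genome (GRCm38, GENCODE), 15 of them one on the opposite strand. These are overlaps of whole gene spans, introns included, and overlap of exons was not checked. The sources used here do not say whether the reads were strand-specific, so reads could be shared where transcripts of overlapping genes have sequence in common. Ube2c (chr2:164769898-164778822, plus strand) overlaps Tnnc2, a troponin of muscle, and the skeletal muscle markers varied 2.64-fold between tumors. Its part in the Ube2c counts was not tested. Espl1 (chr15:102296266-102324357, plus strand) overlaps Gm49480 and Mki67 (chr7:135689784-135716361, minus strand) overlaps Gm45240, both on the opposite strand. Pcna (chr2:132249162-132253314, minus strand), Mcm2 (chr6:88883474-88898780, minus strand) and Cdk1 (chr10:69335146-69352938, minus strand) overlap no other annotated gene.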

How the data were processed

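Expression was measured by RNA-seq of polyA RNA (150 bp paired-end reads) in 10 WEHI 164 tumors. The authors deposited estimated counts per gene, which they made with Kallisto at the level of transcripts and collapsed with tximport (mm10, GRCm38), without scaling for depth or length. The annotation release is not given in the sources used here. Of 36009 rows, 9580 without a gene name (1.2% to 1.49% of the counts) were left out, 44 repeated names were summed and values were rounded, which left 26378 genes. All 45 pairs of tumors differed by more than sampling noise (chi-square per gene of at least 5.05).

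Genes with CPM above 0.366 in at least 3 tumors were tested with edgeR 4.0.16 in R 4.3.3 (quasi-likelihood, TMM, Benjamini-Hochberg over 14944 genes, threshold 0.05), 5 responders against 5 non-responders. The biological coefficient of variation was 10.1%, and tumors are separate mice. Standard errors and 95% intervals come from that fit. Levels used log2(CPM + 1). Coordinates, lengths and GC content are from GENCODE vM21 (GRCm38), and promoters from RefSeq. DESeq2 1.42.0, limma 3.58.1, other normalizations and filters, and leaving out each tumor were alternatives. Of these steps only the edgeR fit was tested on simulated counts, drawn with the same dispersion for every gene.

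Values are printed for 8 members fixed by name, the 4 further members of each group and the 2 genes of each pathway list with the smallest p, the most abundant marker of cell types, and the 5 genes most like and most unlike the mitotic level. Other genes, such as Bub1, Cenpf and Cdkn1a, are named beyond this rule after their values were seen. The members and the lists were chosen with earlier results of these data known.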

Additional observations from a re-analysis of the deposited data

Results flagged for a closer look

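Of 106 comparisons of 1 tumor with the other 4 of its group (53 measures in 2 groups), 9 had an extreme tumor whose gap to the nearest other tumor, divided by the whole range, was above 0.71. Chance gives about 1 in 20, or 5.3. Among the members, Mcm2 in non-responder 3 was at 206 CPM (the other 4 at 218 to 219), Cdk1 in the same tumor at 153 CPM (164 to 166), Ccnb1 in responder 5 at 128 CPM (141 to 145), Gins2 in responder 9 at 45.4 CPM (50.8 to 51.1) and Espl1 in responder 10 at 104 CPM (95.1 to 97.1). Of these 5, 3 are in tumors 3 and 5, which were lowest on both levels.

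In the pathway lists, Ncaph in responder 9 was at 70.8 CPM (64.2 to 66.1), Rbl1 in non-responder 7 at 98.9 CPM (90.5 to 92.4) and Cdc16 in non-responder 1 at 69.1 CPM (74.6 to 76.2). The level of 8 endothelial markers in responder 11 was -0.30, with the other 4 responders between -0.04 and 0.06.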

How the results depend on the processing

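No member passed an adjusted p of 0.05 under any normalization, test, filter or left-out tumor. Over all genes edgeR called 0, DESeq2 called 1 (Col6a2), and leaving out single tumors gave 0 to 10, with 10 without responder 5, while leaving out responder 5 and non-responder 3 together, gave 1 (that, keeping unnamed rows and removing the GC slope were chosen after seeing the data). The members with an unadjusted p under 0.05 were 1, became 2 with library size alone, with DESeq2, with unnamed rows kept and without both tumors (each time Espl1 and Mcm2), and ran from 0 (without non-responder 2) to 3 (without responder 5: Pcna, Cenpa and Espl1). All genes with an unadjusted p under 0.05 were 1250, then 2177 without both tumors, and 821 (without responder 11) to 2095 (without responder 5) with 1 tumor left out. The sign of the log2 fold change with 1 tumor left out was checked for 32 genes, fixed by name or smallest p. It turned for 4 of them, and the other members were not checked. Rrm2 turned to 0.02 without responder 5 or 9 and 0.03 without non-responder 6. Mki67 turned to -0.01 without responder 9 and -0.004 without non-responder 6. Cdk1 turned to 0.01 without responder 5, 0.003 without responder 10 and 0.004 without non-responder 7. Ccnb1 turned to -0.01 without non-responder 3. Over left-out tumors Rrm2 ran from -0.061 to 0.033, Mki67 from -0.0097 to 0.086, Cdk1 from -0.024 to 0.012 and Ccnb1 from -0.012 to 0.055. Some genes that kept their sign also shifted in size. Ube2c ran from 0.016 to 0.108, Top2a from 0.014 to 0.077, Cdc6 from -0.118 to -0.041 and Gins2 from -0.069 to -0.024. The cause of these shifts was not tested. The difference in S phase level ran from -0.04 to -0.005 and in mitotic level from -0.01 to 0.03. No paired analysis was possible because the tumor numbers are unique across the groups. The lowest count of a member in a tumor was 296 (Ccne1), and the part of counting error in the spread between tumors was not tested.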
